A study of Mus musculus with 7 samples.

Results

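The interferon-induced transmembrane genes *Ifitm1*, *Ifitm2*, *Ifitm3* and *Ifitm6* were followed in lin- bone marrow cells of mice with and without *HRP-2*. They were chosen by name, and are 4 of the 25033 genes with a row in the count files. All 4 passed the filter on low counts, which left 11265 genes for testing. The wild type group held 3 HRP-2+/+ mice and the knockout group 4 HRP-2-/- mice, all aged 6 to 8 weeks. They came from the C57BL/6N line with the Hdgfrp2 tm1b knockout allele, which the wild type mice do not carry. The knockout is systemic, and the study checked the loss of HRP-2 in bone marrow cells. No agent was given. The lin- cells are what remains of bone marrow after red cell lysis and removal of cells with markers of mature lineages by a progenitor isolation kit, a mixture rather than 1 cell type. RNA was read as 75-base single reads from 3′ end libraries, in which 1 fragment stands for 1 transcript.

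IFITM proteins are small membrane proteins of the dispanin family. They sit in the plasma membrane and in endosomes and hinder the fusion of enveloped viruses with the cell. Type I and type II interferons induce several of the genes through a signalling pathway that acts on the interferon-stimulated response element (ISRE) and the gamma-activated site (GAS), but stem and progenitor cells are also known to express IFITM genes without interferon. IFITM3 acts mainly in endosomes and lysosomes, and IFITM1 mainly at the cell surface. IFITM6 is a rodent family member that has been studied less.

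The genes lie in 1 cluster on chromosome 7 of GRCm38. In GENCODE M21, *Ifitm2* (ENSMUSG00000060591.9) runs from 140954837 to 140955987 on the minus strand, and *Ifitm1* (ENSMUSG00000025491.14) from 140967221 to 140969825 on the plus strand. *Ifitm3* (ENSMUSG00000025492.6) runs from 141009586 to 141010770 and *Ifitm6* (ENSMUSG00000059108.4) from 141015699 to 141017924, both on the minus strand. The sequences around the transcription starts are shown because interferon acts on genes through elements near the start, and the 4 starts can be searched for them. They are the RefSeq promoter windows of GRCm38.p6, cut to 120 bases before and 30 bases after the annotated start, in the direction of transcription. All 4 genes matched by symbol. Capitals mark matches, on either strand, to the ISRE core GAAANNGAA or to the GAS TTCNNNGAA, where N is any base.
Ifitm1, chr7:140967956-140968105, plus strand: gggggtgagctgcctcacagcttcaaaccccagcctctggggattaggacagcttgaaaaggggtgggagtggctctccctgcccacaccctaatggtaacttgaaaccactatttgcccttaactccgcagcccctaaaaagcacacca
Ifitm2, chr7:140955932-140956081, minus strand: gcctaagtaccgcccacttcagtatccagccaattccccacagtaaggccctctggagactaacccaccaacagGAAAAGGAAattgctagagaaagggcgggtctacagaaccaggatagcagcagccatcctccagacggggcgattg
Ifitm3, chr7:141010715-141010864, minus strand: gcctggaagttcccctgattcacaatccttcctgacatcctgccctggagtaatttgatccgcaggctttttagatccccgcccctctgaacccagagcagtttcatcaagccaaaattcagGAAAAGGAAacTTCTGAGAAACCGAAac
Ifitm6, chr7:141016863-141017012, minus strand: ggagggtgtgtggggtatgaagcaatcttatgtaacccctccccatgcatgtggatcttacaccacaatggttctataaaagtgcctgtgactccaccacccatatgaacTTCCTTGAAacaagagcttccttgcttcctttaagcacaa

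The 4 starts differed in these letters. Over the whole RefSeq window of 250 bases before to 50 after the start, the ISRE core was found in 8.56% of 32851 promoters and the GAS in 8.30%. *Ifitm3* held 2 ISRE cores, GAAAAGGAA at 2 bases and GAAACCGAA at 19 bases after the start, with a GAS, TTCTGAGAA, at 13 bases that overlaps the latter. *Ifitm2* held 1 ISRE core, GAAAAGGAA, the same letters as the first match of *Ifitm3*, at 46 bases before the start. *Ifitm6* held 1 GAS, TTCCTTGAA, at 10 bases before the start, and no ISRE core. Neither motif was in the *Ifitm1* window, which belongs to 1 of several annotated starts of that gene. The *Ifitm6* window also belongs to 1 start, at 141016892, while the gene is annotated up to 141017924 on the minus strand. Other starts were not searched. A match describes letters and is not a measured binding site.

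The members are close relatives, so it was checked whether a read could be placed on 1 of them. The coding sequences of *Ifitm1*, *Ifitm2* and *Ifitm3* were between 80.9% and 82.1% identical in pairs. That of *Ifitm6* was between 64.3% and 68.8% identical to the others. The closest coding stretch of read length between 2 members differed at 1 of 75 bases, in *Ifitm1* and *Ifitm3*. These stretches are printed, with the differing base in capitals, to show how little separates the genes there.
Ifitm1: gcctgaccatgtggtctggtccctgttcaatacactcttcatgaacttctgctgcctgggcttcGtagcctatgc
Ifitm3: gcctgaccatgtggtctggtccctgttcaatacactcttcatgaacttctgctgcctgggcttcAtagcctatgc

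No stretch of 75 bases in the last 500 bases of a member's transcript, where 3′ end reads fall, was present without a mismatch in another member. The median distance from such a stretch to the nearest one of another member was 23 mismatches for *Ifitm1*, 15.5 for *Ifitm2* and *Ifitm3*, and 42 for *Ifitm6*. *Ifitm2* shared sequence of read length with genes outside the group. Of its 426 stretches, 139 (32.6%) also occurred in other annotated genes. Of the 426, 76 (17.8%) were found in *Gm11951*, *Gm2840*, *Gm45308* and *Gm8865*, whose positions were not looked up. The rest of the 139 were found only in *Gm45717*, which overlaps *Ifitm2*. None of these genes has a row in the files. As to shared sequence, the level of *Ifitm2* is the least certain of the 4, but the effect of the sharing on its count was not measured. The share found in other annotated genes was 1.41% for *Ifitm1*, 0.939% for *Ifitm3* and 0% for *Ifitm6*. Which strand was counted is not given in the sources used here.

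The libraries held from 3525665 to 5605158 reads on genes, at which the 4 genes together took 1272 to 2123 reads per mouse. A count of 3 reads, taken as the floor, corresponds to 0.561 to 0.840 CPM (counts scaled to a common library size, with edgeR's TMM factors), which covers counting error only. The deleted gene, *Hdgfl2*, had 228, 156 and 168 reads in the wild type mice and 13, 3, 8 and 2 in the knockout mice. *Rn45s*, the ribosomal RNA precursor, took 4.94% to 20.6% of the reads. Knockout replicate 3 stood apart: it had *Xist*, the RNA of the inactive X chromosome, at 0.561 CPM and *Ddx3y*, a Y-linked gene, at 104.5 CPM, whereas the other 6 libraries had *Xist* at 229.0 to 302.8 CPM and *Ddx3y* at 0.777 CPM or less. The labels give no sex, and values without this mouse are given beside the members and the lists. Markers of progenitors and of maturing cells were read to describe the mixture. *Kit* stood at 112.0 ± 11.1 CPM (wild type, SD, n = 3) against 95.4 ± 8.67 CPM (knockout, SD, n = 4). Of 16 stem and progenitor markers 15 passed the filter, as did all 13 neutrophil and all 10 monocyte markers. Over all genes, 11265 of 25033 passed. Passing therefore does not tell progenitors from maturing cells. Markers of maturing myeloid cells were also abundant, with 13 neutrophil markers adding up to 8072 to 25393 CPM (at most 16039 CPM without knockout replicate 3) and 10 monocyte markers to 3795 to 4975 CPM.

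All 4 genes were expressed in every mouse. *Ifitm3*, the member best known for restricting influenza virus, was the most abundant. Its CPM was 221.4, 171.1 and 171.4 in wild type replicates 1 to 3 and 180.3, 235.9, 210.0 and 172.9 in knockout replicates 1 to 4. The genotypes overlapped, and the mean of *Ifitm3* over all mice was at or above that of 92.7% of the genes tested. *Ifitm2* had a CPM of 91.9, 120.4 and 53.9 in wild type and of 73.1, 60.9, 101.8 and 83.0 in knockout mice. Its 2 extreme values were both wild type, so the knockout range fell inside the wild type range. *Ifitm1* had a CPM of 73.5, 60.8 and 79.2 in wild type and of 67.6, 41.1, 45.4 and 43.1 in knockout mice. Knockout replicates 2 to 4 lay below all wild type mice, and knockout replicate 1 lay among them. *Ifitm6* had a CPM of 25.9, 29.4 and 33.5 in wild type and of 41.2, 30.3, 39.4 and 34.6 in knockout mice. Knockout replicates 1, 3 and 4 lay above all wild type mice, and knockout replicate 2 within their range.

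**Figure D1:**
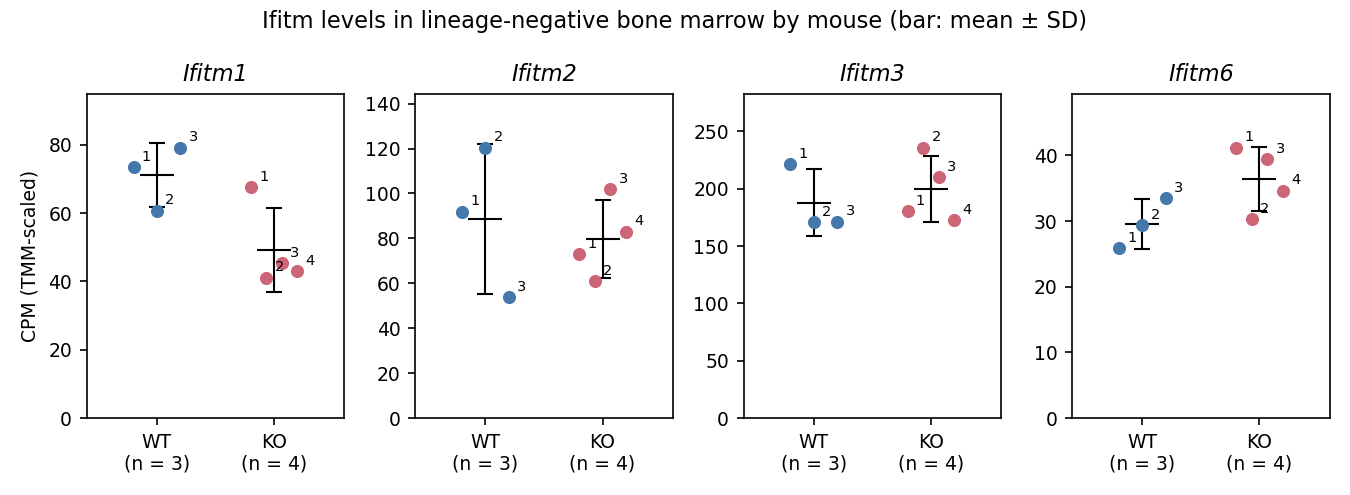
Level of each Ifitm gene in CPM (vertical axis, from 0, a scale of its own per gene) in 3 wild type (WT) and 4 knockout (KO) mice, with points numbered by replicate and the mean ± SD as bars. *Ifitm1* was below the wild type range in 3 of 4 knockout mice and *Ifitm6* above it in 3 of 4, while *Ifitm2* and *Ifitm3* overlapped between genotypes.

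Between genes, levels were compared as CPM per kilobase of exon. CPM itself is given beside it because a 3′ end library counts transcripts whatever their length. In such a library the division itself lowers genes with more exonic bases. These were 1094 for *Ifitm1*, 905 for *Ifitm6*, 678 for *Ifitm3* and 655 for *Ifitm2*. In CPM per kilobase, *Ifitm3* led in all 7 mice, with 252.3 to 347.9, and its range lay above that of every other member. *Ifitm2* came next with 82.3 to 183.8, and its range did not overlap that of *Ifitm1*, at 37.6 to 72.4, although in CPM the ranges overlapped, at 53.9 to 120.4 and 41.1 to 79.2. *Ifitm1* and *Ifitm6* were apart in wild type mice, with 65.0 ± 8.62 against 32.7 ± 4.20 CPM per kilobase (SD, n = 3). In knockout mice they were not apart beyond their spread, with 45.1 ± 11.3 against 40.2 ± 5.41 (SD, n = 4). In CPM, *Ifitm1* was above *Ifitm6* in each of the 4 knockout mice, at 49.3 ± 12.3 against 36.4 ± 4.90 (SD, n = 4). In CPM per kilobase the order *Ifitm3*, *Ifitm2*, *Ifitm1*, *Ifitm6* held in 6 of 7 mice, and in knockout replicate 3 *Ifitm6* was above *Ifitm1*. In CPM without length the order was the same in 6 of 7 mice, and in wild type replicate 3 *Ifitm1* was above *Ifitm2*.

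The question put to these genes was whether loss of HRP-2 changed their level. No member passed the test between genotypes. On edgeR's quasi-likelihood test, 0 of 4 had an adjusted p-value under 0.25, the threshold of the study, against 0.0178% of all genes tested, and DESeq2 also called 0 of 4, against 0.11% of the genes it tested. In none of the 4 were the genotypes free of overlap, against 5.16% of all genes tested. At an unadjusted p-value under 0.05 there was 1 of 4 members, *Ifitm1*, against 3.63% of all genes tested.

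*Ifitm1* had the largest difference of the 4. Its mean was 71.1 ± 9.43 CPM (wild type, SD, n = 3) against 49.3 ± 12.3 CPM (knockout, SD, n = 4). The log2 fold change (log2FC, knockout minus wild type) was -0.53 (standard error, SE, 0.19, 95% interval -0.92 to -0.13, quasi-likelihood test of edgeR: unadjusted p = 0.0114, adjusted p = 0.999). All 4 knockout mice were below the wild type mean. On log2(CPM + 1), an exact permutation test (two-sided) gave p = 0.0857, where 0.0286 is the smallest that 7 mice allow. Knockout replicate 1 decided the size: without it the log2FC was -0.72 (unadjusted p = 0.000762, adjusted p = 0.528 from the same edgeR test), and over all alternatives the adjusted p stayed between 0.528 and 1.00. Without wild type replicate 3, the highest wild type mouse, the log2FC was -0.44 and the unadjusted p was 0.0556 in edgeR, no longer under 0.05. In a bulk sample, fewer cells that express a gene and less RNA per cell cannot be told apart.

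*Ifitm6* differed in the opposite direction by sign. Its mean was 29.6 ± 3.80 CPM (wild type, SD, n = 3) against 36.4 ± 4.90 CPM (knockout, SD, n = 4), and all 4 knockout mice were above the wild type mean. The log2FC was 0.30 (SE 0.19, 95% interval -0.11 to 0.71, adjusted p = 0.999 in edgeR; exact permutation p = 0.114). The 105 to 212 reads per mouse make *Ifitm6* the most thinly counted member, with a counting error of 6.87% to 9.76% in a library.

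*Ifitm2* and *Ifitm3* had intervals that spanned 0 with room on both sides. *Ifitm2* stood at 88.8 ± 33.3 CPM (wild type, SD, n = 3) against 79.7 ± 17.3 CPM (knockout, SD, n = 4), a log2FC of -0.15 (95% interval -0.67 to 0.36, exact permutation p = 0.800). Wild type mice of this gene varied by 37.6% of their mean, and its biological coefficient of variation of 22.2% exceeded the 16.5% of genes at its level. Wild type replicate 2 set the sign: without it the log2FC of *Ifitm2* was 0.13, and without wild type replicate 3 it was -0.41. *Ifitm3* stood at 187.9 ± 28.9 CPM (SD, n = 3) and 199.8 ± 28.9 CPM (SD, n = 4), a log2FC of 0.09 (95% interval -0.22 to 0.40, exact permutation p = 0.571). A change of *Ifitm3* above 0.40 or below -0.22 lies outside that interval. Without knockout replicate 2, its highest mouse, the value was -0.0019. Without knockout replicate 3, the mouse with Y-linked reads, the log2FC values were -0.49 for *Ifitm1*, -0.30 for *Ifitm2*, 0.06 for *Ifitm3* and 0.26 for *Ifitm6*. None of the 4 then had another sign, and the value of *Ifitm2* was larger than with it.

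**Figure D2:**
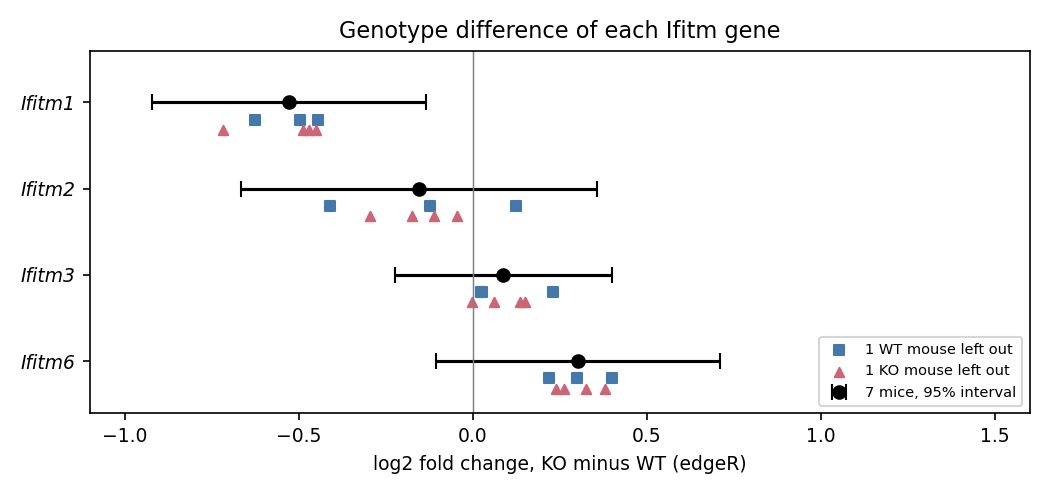
Log2 fold change, knockout minus wild type (horizontal axis), of each Ifitm gene from edgeR with its 95% interval over 7 mice (black), and with 1 wild type (blue squares) or 1 knockout mouse (red triangles) left out. Only the interval of *Ifitm1*, -0.92 to -0.13, lies on 1 side of 0, and the values of *Ifitm2* and *Ifitm3* cross 0 when 1 mouse is left out.

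The summed level of the family did not show these opposite signs. It was 412.7, 381.6 and 338.0 CPM in wild type and 362.2, 368.2, 396.7 and 333.6 CPM in knockout mice. The genotypes overlapped, with means of 377.4 ± 37.5 CPM (SD, n = 3) and 365.2 ± 25.9 CPM (SD, n = 4). Within the sum, *Ifitm3* gave 49.7% ± 4.49 of the reads in wild type and 54.7% ± 6.40 in knockout mice, and *Ifitm2* gave 23.3% ± 7.84 and 21.8% ± 4.27 (SD, n = 3 and n = 4). The share of *Ifitm1* was 19.1% ± 3.9 in wild type and 13.6% ± 3.5 in knockout mice. That of *Ifitm6* was 7.96% ± 1.83 and 9.98% ± 1.31.

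**Figure D3:**
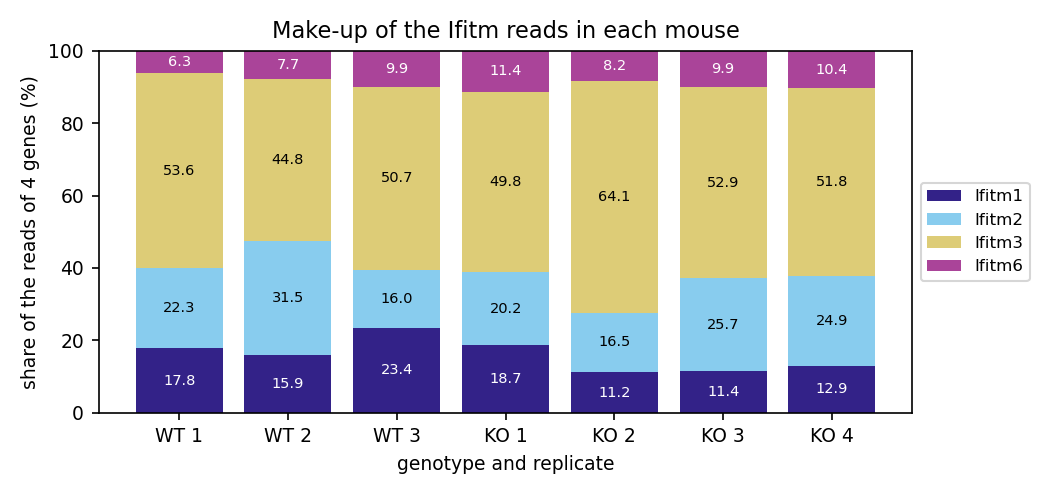
Share of each gene in the reads of the 4 Ifitm genes (vertical axis, percent) in each mouse (horizontal axis). *Ifitm3* gives 44.8% to 64.1% of the reads in every mouse. *Ifitm1* gives 15.9% to 23.4% in the wild type mice and 11.2% to 12.9% in knockout replicates 2 to 4. Knockout replicate 1, at 18.7%, lies inside the wild type range, so the genotypes overlap.

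A ratio of 2 genes within a library needs no scaling between libraries, so the 6 pairs of members were compared as log2 ratios of (reads + 0.5). The ratio of *Ifitm1* to *Ifitm6* was the one in which the genotypes did not overlap. It was 2.83, 2.06 and 2.36 reads of *Ifitm1* per read of *Ifitm6* in wild type mice and 1.64, 1.35, 1.15 and 1.24 in knockout mice. Every knockout mouse was below every wild type mouse. The mean log2 ratio was 1.26 ± 0.23 (wild type, SD, n = 3) against 0.42 ± 0.22 (knockout, SD, n = 4), a difference of -0.84 (two-sided exact permutation p = 0.0286, the smallest possible; adjusted p = 0.171 over 6 pairs). The adjusted value is above 0.05, the threshold used for tests of single values, and the pair joins the members with the largest differences of opposite sign. Over the alternatives the difference was between -0.95 and -0.72, and without knockout replicate 3 it was -0.77. For *Ifitm1* against *Ifitm3* the difference in log2 ratio was -0.64 (exact permutation p = 0.114, adjusted p = 0.343), with 3 of 4 knockout mice below the wild type range. For *Ifitm1* against *Ifitm2* it was -0.44, for *Ifitm2* against *Ifitm6* -0.40, for *Ifitm3* against *Ifitm6* -0.21 and for *Ifitm2* against *Ifitm3* -0.19, with exact permutation p-values between 0.343 and 0.629. Single wild type mice moved those with *Ifitm2*: *Ifitm1* against *Ifitm2* was -0.04 without wild type replicate 3 and -0.81 without replicate 2, and *Ifitm2* against *Ifitm6* was -0.81 and -0.14.

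**Figure D4:**
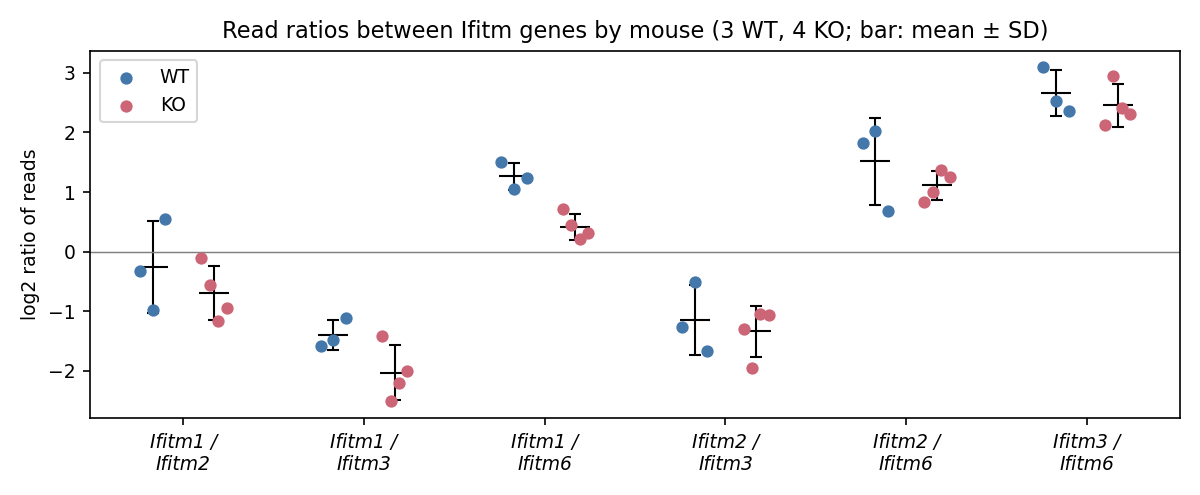
Log2 ratio of reads between each pair of Ifitm genes (vertical axis) by mouse in 3 wild type (blue) and 4 knockout (red) mice, with the mean ± SD as bars. The genotypes are apart in *Ifitm1* / *Ifitm6*, at 1.04 to 1.50 against 0.20 to 0.71, and overlap in the other pairs.

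No correlation between members across the 7 mice passed the test. Pearson's r of log2(CPM + 1) was between -0.35 and -0.07 for the 6 pairs (exact permutation p between 0.425 and 0.879, all adjusted p = 0.879), and Spearman's rho was between -0.36 and -0.07 (all adjusted exact p = 0.906). Without the 2 mice farthest from the median, r ranged from -0.65 to 0.64. Over deviations from the genotype means, r ran from -0.66 for *Ifitm3* and *Ifitm6* to 0.62 for *Ifitm1* and *Ifitm6*, values that were not tested. For *Ifitm1* and *Ifitm6* the sign was thus opposite to the -0.20 over the values themselves. With 1 mouse left out at a time, r ran from -0.65 (*Ifitm1* and *Ifitm3*, without wild type replicate 1) to 0.32 (*Ifitm1* and *Ifitm2* without wild type replicate 3, and *Ifitm2* and *Ifitm3* without knockout replicate 2). It stayed negative for *Ifitm1* and *Ifitm3* and for *Ifitm3* and *Ifitm6*, and turned sign in the other pairs. Within genotypes r rests on 3 or 4 mice and is not given.

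The genes whose log2 CPM followed each member most closely over the 7 mice were picked by r among all genes tested, and are a description. For *Ifitm1* they were *Pkd2* (r = 0.993), *Tstd1* (r = 0.972) and *Fam76b* (r = 0.963). For *Ifitm2* they were *Hmgxb3* (0.986), *Pex10* (0.984) and *Ctdspl2* (0.978), and for *Ifitm3* *Ankrd17* (0.972), *Rps19bp1* (0.945) and *Dph5* (0.944). For *Ifitm6* they were *Wdr20* (0.988), *Bmx* (0.980) and *Cast* (0.957). No gene appeared for 2 members. *Pkd2*, which encodes the cation channel polycystin-2, stood at 4.96 ± 2.16 CPM (wild type, SD, n = 3) against 1.45 ± 1.49 CPM (knockout, SD, n = 4), the latter near the floor.

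Of the remaining family, *Ifitm10* was tested and stood at 6.92 ± 3.05 CPM (wild type, SD, n = 3) against 4.38 ± 2.06 CPM (knockout, SD, n = 4), a log2FC of -0.67 (SE 0.47). *Ifitm5*, known from bone-forming osteoblasts, had 36 reads over all mice, and *Ifitm7* had 42, and neither passed the filter. Of 6 other dispanin genes, 1 was tested, *Prrt2*, with a log2FC of -0.61 (SE 0.66). The dispanins in these cells were thus read almost wholly from the 4 clustered genes. Without knockout replicate 3, the list of other Ifitm genes had 1 gene tested, with a log2FC of -0.52. That of other dispanin genes also had 1, with a log2FC of -0.80.

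The genes next to the cluster were measured to see whether they moved with it. Of 24 neighbours on chromosome 7, 17 were tested, 10 higher and 7 lower by sign, with a median log2FC of 0.03. Of the listed genes, those nearest to the Ifitm genes in GENCODE M21 are *Pgghg*, a glucosidase gene, on the side of *Ifitm5*, and *B4galnt4*, a glycosyltransferase gene, on the side of *Ifitm6*. *Pgghg* stood at 15 ± 3.60 CPM (wild type, SD, n = 3) against 10.3 ± 2.17 CPM (knockout, SD, n = 4), with overlap between genotypes and a log2FC of -0.54 (SE 0.29, adjusted p = 0.999 in edgeR). *B4galnt4*, at 2.06 ± 1.45 against 1.46 ± 1.2 CPM, did not pass the filter. Of the 17, 2 had an unadjusted p-value under 0.05, both lower, against 2.07% of all genes tested that were lower at that level. *Irf7*, the transcription factor that amplifies type I interferon production, had a log2FC of -0.57 (SE 0.26). *Ptdss2*, a phosphatidylserine synthase, had one of -0.50 (SE 0.23), and its genotypes did not overlap, against 2.79% of all genes that were lower without overlap. Without knockout replicate 3, 8 neighbours were higher and 9 lower, and none had an unadjusted p-value under 0.05.

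The pathway that induces the family was read from its receptors, kinases and transcription factors. All 19 were tested, with 6 higher and 13 lower by sign, a median log2FC of -0.06, and 4 with an unadjusted p-value under 0.05, all lower, where 2.07% of all genes tested were lower at that level. *Irf7*, also counted among the chromosome 7 neighbours, is 1 of these 4. *Usp18*, which dampens the type I receptor and is itself induced by interferon, had the smallest p, with a log2FC of -0.99 (SE 0.35). *Irf9*, a DNA-binding factor that acts on the ISRE, stood at 107.5 ± 11.8 CPM (wild type, SD, n = 3) against 88.2 ± 2.02 CPM (knockout, SD, n = 4), with a log2FC of -0.28 (SE 0.14). Its genotypes did not overlap, and 2.79% of all genes tested were lower without overlap. Without knockout replicate 3 the median was -0.07 and 1 gene had an unadjusted p-value under 0.05.

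Other interferon-stimulated antiviral genes leaned lower. Of 40 listed, 36 were tested, 31 lower and 5 higher by sign, with a median log2FC of -0.35 against -0.0014 over all genes tested. At an unadjusted p-value under 0.05 there were 11, all lower (against 2.07% of all genes tested that were lower at that level), and in 7 the knockout mice were all below the wild type mice (against 2.79% of all genes tested). None had an adjusted p-value under 0.25. *Helz2*, a helicase and nuclear coactivator, had a log2FC of -0.94 (SE 0.22), *Ifi27* of -0.79 (SE 0.20) and *Ifi44* of -1.26 (SE 0.40). *Ifi27*, a small mitochondrial protein, stood at 77.1 ± 18.6 CPM (SD, n = 3) and 44.8 ± 10.2 CPM (SD, n = 4). Beside these, *Ifitm1* at -0.53 lay below the list's median, while *Ifitm2* at -0.15, *Ifitm3* at 0.09 and *Ifitm6* at 0.30 lay above it, a difference that was not tested. Without knockout replicate 3, 30 of the 36 were lower, with a median of -0.31, and 8 had an unadjusted p-value under 0.05. The study reported on interferon genes in these libraries, so the direction of this list is not independent evidence.

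Genes that act with the proteins or at the same membranes had medians near 0. Of 10 tested genes of membrane and entry restriction, 3 were higher and 7 lower by sign, none with an unadjusted p-value under 0.05, and the median was -0.07. Without knockout replicate 3, 5 were higher and 5 lower, with a median of -0.01. *Rsad2*, which encodes viperin, had a log2FC of -0.49 (SE 0.26), *Zmpste24*, a protease that works with IFITM proteins, one of 0.20 (SE 0.19) and *March1*, a ubiquitin ligase, one of 0.22 (SE 0.27). Of 14 modifiers and partners, 7 were higher and 7 lower, with a median of -0.02, and 5 were higher and 9 lower without that mouse, with a median of -0.05. *Setd7*, a methyltransferase reported to act on IFITM3, had a log2FC of -0.45 (SE 0.19, unadjusted p = 0.0260 in edgeR). *Nedd4*, its ubiquitin ligase, had one of -0.34 (SE 0.18). *Zdhhc20*, a palmitoyltransferase, and *Cd81*, a tetraspanin, each had one of -0.14 (SE 0.13 and 0.16).

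Markers of the cell types that a lin- preparation can hold were set beside the members. Stem and progenitor markers had 5 higher and 10 lower of 15 tested, with a median log2FC of -0.20 (4 higher and 11 lower, median -0.17, without knockout replicate 3). *Lmo2*, a factor of early progenitors, had one of -0.28 (SE 0.13), *Kit* one of -0.23 (SE 0.14) and *Meis1* one of -0.33 (SE 0.20). All 13 neutrophil markers were higher by sign, none with an unadjusted p-value under 0.05, with a median of 0.69 that was 0.22, and 10 of 13 higher, without knockout replicate 3. *S100a8* stood at 3398 ± 1550 CPM (SD, n = 3) and 5472 ± 1541 CPM (SD, n = 4). *S100a9*, its partner in calprotectin, and *Ly6g* had log2FC values of 0.78 and 0.84 (SE 0.39 and 0.38). Of 10 monocyte markers, 8 were higher, 4 of them with an unadjusted p-value under 0.05, against 1.56% of all genes that were higher at that level, 2 had genotypes without overlap, against 2.37% of all genes that were higher without overlap, and their summed level was 3795 to 3867 CPM in wild type and 4251 to 4975 CPM in knockout mice. *Fn1*, *Klf4* and *Cx3cr1* had log2FC values of 1.00, 0.70 and 0.38 (SE 0.26, 0.23 and 0.14). Of 10 macrophage markers, 9 were lower, 6 of them with an unadjusted p-value under 0.05 (against 2.07% of all genes tested that were lower at that level), and the summed level was 351.0 to 413.8 CPM in wild type and 253.4 to 305.9 CPM in knockout mice. Leaving out knockout replicate 3 gave 10 of 10 monocyte markers higher and 8 of 10 macrophage markers lower. *C1qc*, a complement subunit made by macrophages, stood at 34.4 ± 2.56 CPM (wild type, SD, n = 3) against 17.2 ± 1.12 CPM (knockout, SD, n = 4). *C1qa* and *Spic* had log2FC values of -0.72 and -1.76 (SE 0.19 and 0.59). The neutrophil and promyelocyte totals overlapped between genotypes, and the monocyte and macrophage totals did not. Their part in the levels of *Ifitm1* and *Ifitm6* was not tested.

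**Figure D5:**
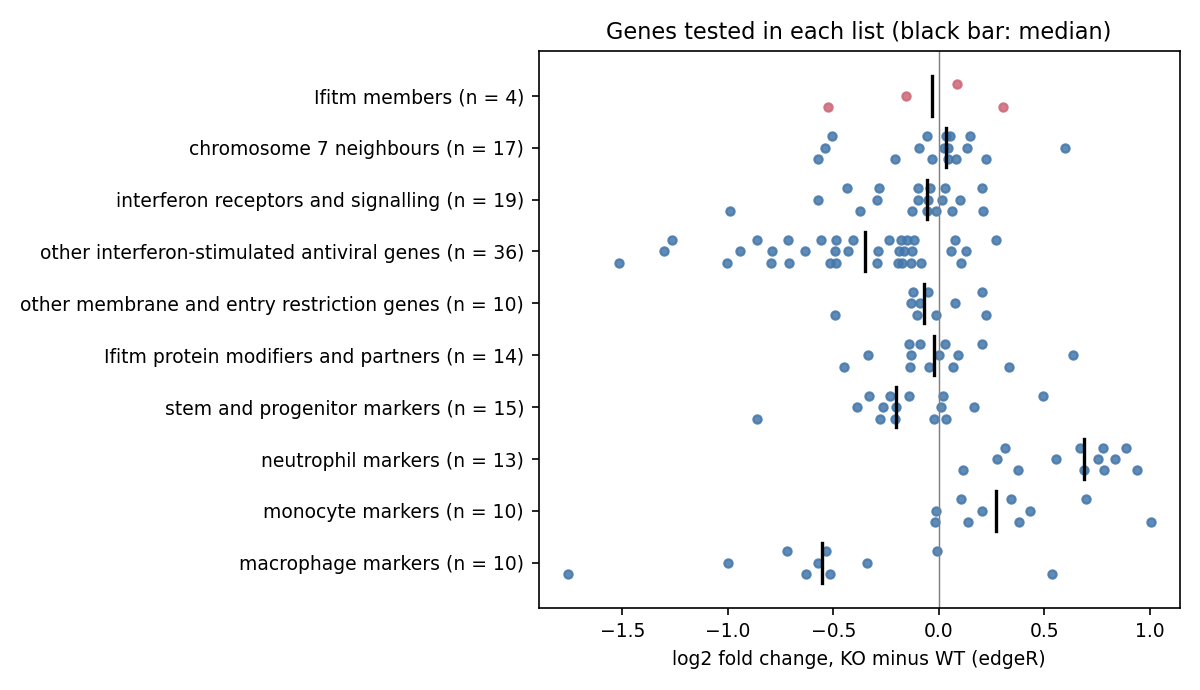
Log2 fold change, knockout minus wild type, of the genes tested (points) in the Ifitm group (red) and in lists of related genes and cell type markers (blue), with the median of each list as a black bar. The interferon-stimulated genes have a median of -0.35, the 4 Ifitm genes lie between -0.53 and 0.30, neutrophil markers have a median of 0.69 and macrophage markers of -0.56.

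Lists of the remaining lineages were read in the same way. Of 10 tested markers of eosinophils, basophils and mast cells, 9 were lower, 4 of them with an unadjusted p-value under 0.05 (against 2.07% of all genes tested that were lower at that level), with *Prg2* at -0.38, *Epx* at -0.70 and *Prss34* at -0.35 on the log2 scale (SE 0.12, 0.22 and 0.14). Of the 10, 10 were lower without knockout replicate 3. Their summed level was 4602 to 4984 CPM in wild type and 3178 to 4419 CPM in knockout mice, with no overlap, and its part in the Ifitm levels was not tested either. Promyelocyte granule markers had 3 of 6 lower, with *Prtn3* at 0.19, *Elane* at -0.14 and *Ctsg* at -0.10, and 5 of 6 lower without knockout replicate 3. Erythroid markers had 4 of 6 lower, with *Klf1* at 0.73, *Car2* at -0.44 and *Alas2* at 0.57, and megakaryocyte markers 2 of 5, with *Ppbp* at 1.86 (SE 1.50), *Itga2b* at -0.17 and *Gp1bb* at -0.28, and both counts were the same without that mouse. Knockout replicate 4 stood apart in the summed megakaryocyte markers, at 869.3 CPM, where knockout replicates 1 to 3 had 101.6 to 185.8 CPM. B lineage markers had 7 of 11 lower, with *Dntt* at -0.74, *Rag1* at -1.57 and *Cd79a* at -0.65. T and NK markers had 7 of 11 lower, with *Klre1* at -1.05, *Cd8a* at 0.59 and *Klrd1* at -0.34. For lymphoid markers the majority turned without knockout replicate 3, to 4 of 10 lower and 5 of 11 lower.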

How the data were processed

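The deposited files hold the counts of 3′ end reads on 25033 gene symbols in lin- bone marrow cells of 3 wild type and 4 knockout mice. The authors made the libraries from 500 ng of total RNA, aligned the 75-base reads to GRCm38 with STAR and deposited whole-number counts without normalization, and their notes also list FastQC and DESeq2. Tally rows for reads on no gene (27.0% to 31.6% of reads) and for ambiguous reads were left out here.

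Counts were scaled with TMM factors, filtered with filterByExpr and tested with the robust quasi-likelihood test of edgeR 4.0.16 in R 4.3.3, with Benjamini-Hochberg adjustment over 11265 genes. The standard error is the log2 fold change divided by the square root of F. The script was tested on simulated data. CPM values use the same factors. Single values were compared by two-sided exact permutation tests over 35 assignments of the mice. Shared read sequences were searched in GENCODE M21 transcripts, and promoters are RefSeq's. Replicates are mice, and all pairs differed by more than sampling noise.

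The members and the 18 gene lists were chosen with earlier results of these data known. Some lists share genes, among them *Irf7*, *Rsad2* and *Zmpste24*, so their counts are not independent. Genes named are the members, their relatives, library checks, the 3 genes with the smallest p in each list, the 3 most like each member, the nearest neighbours, and *Irf7*, *Irf9*, *Zmpste24*, *Nedd4*, *Zdhhc20*, *Cd81* and *Kit*. A gene that this rule names is not reported here. Genes sharing sequence with *Ifitm2* were named after the match. Alternatives were DESeq2 1.42.0, limma 3.58.1 voom, the likelihood ratio test, other scalings and filters, *Rn45s* left out, the replicate number as a block and each mouse left out. Lists without knockout replicate 3, likeness on deviations and member correlations with each mouse left out were chosen after seeing the data. Sequences of the proteins were not analysed here.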

Additional observations from a re-analysis of the deposited data

Results flagged for a closer look

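The level of *Ifitm1* in knockout replicate 1, 67.6 CPM, stood apart from the other 3 knockout mice, at 41.1 to 45.4 CPM. Its gap to the nearest of them was 0.839 of the range of the group, which is past Dixon's 95% critical value for 4 samples. It was 1 of 11 values tested in this way in the knockout group, of which chance gives 0.55. The other members, their sum and the 6 log2 ratios were not past the limit.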

How the results depend on the processing

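Under 16 alternative fits, *Ifitm1* stayed lower (log2 fold change -0.72 to -0.44) and *Ifitm6* stayed higher (0.22 to 0.40) in knockout cells, and no member reached an adjusted p-value under 0.25. With 1 mouse left out at a time, *Ifitm2* ran from -0.41 to 0.13 and *Ifitm3* from -0.0019 to 0.23, and each turned sign in 1 of the 16 fits. The number of genes past an adjusted p-value of 0.25 was 2, and became 29 with edgeR's likelihood ratio test, 41 with no filter on low counts, 18 with DESeq2, 1 with at least 10 counts in every mouse and 2 to 7 with 1 mouse left out, with 7 without wild type replicate 1 and 4 without knockout replicate 1. The cause was not tested. With library totals alone, r turned to 0.056 for *Ifitm1* and *Ifitm3*, 0.11 for *Ifitm1* and *Ifitm6*, and 0.042 for *Ifitm3* and *Ifitm6*.

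Mice with the same number did not deviate together (r = -0.02, -0.21 and -0.16 for numbers 1 to 3), and a replicate block left 1 gene past 0.25, with log2 fold changes of -0.49 for *Ifitm1*, -0.14 for *Ifitm2*, 0.15 for *Ifitm3* and 0.32 for *Ifitm6*. The difference in the log2 ratio of *Ifitm1* to *Ifitm6* kept its sign in all 9 alternatives. Those of *Ifitm2* to *Ifitm3* (up to 0.13) and *Ifitm3* to *Ifitm6* (up to 0.0088) turned sign with 1 mouse left out. Depth was 105 to 1135 reads per member and mouse.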
